A study of Mus musculus with 1248 samples.

Results

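Mature neutrophils from the hindlimb bones of mice carrying 4T1 cells were compared between day 16 and day 4 after injection. A cell was taken as a mature neutrophil when, with counts scaled to each cell's total (CPM), S100a8 and S100a9 together reached 5000 CPM and Cxcr2 reached 100 CPM. It also had to hold under 100 CPM of Cd79a, under 100 CPM of C1qa and under 500 CPM of Krt8 and Krt18 together. The members were thus chosen by measured levels, and these limits took 119 of the 1248 cells of the series: 83 of 499 cells that passed the depth filter at day 4 (16.6%, exact binomial 95% interval 13.5 to 20.2%) and 36 of 191 at day 16 (18.8%, 13.6 to 25.1%). The filter asked for 1000 detected genes and 50000 counts in genes. The values of these 7 genes are therefore descriptions and carry no finding. The word mature stands for these limits alone. RNA of the granule proteins Ngp, Camp and Ltf falls late in maturation, yet its summed median was 58753 CPM at day 4 and 31200 CPM at day 16. Only 10 of the 83 and 9 of the 36 cells held under 5000 CPM of it. Cell cycle genes summed to 5000 CPM or more in 20 and 3 cells, so the members include less mature and dividing cells.

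4T1 is a mouse mammary carcinoma line that spreads to bone, here carrying firefly luciferase and the red fluorescent protein mCherry. It was injected into the heart of female BALB/c mice, hindlimb cells were taken at day 4, day 10 or day 16, and single mCherry-positive cells were sorted into plates. Wells whose amplified cDNA gave an mCherry qPCR cycle value above 30 were discarded. The related line 4T1.2, marked the same way, gave a second group at day 4, which serves here as another day 4 group. All groups share the reporters, the route of injection and the sort. The ages of the mice, the number of mice and the plates are not given in the sources used here, so each group counts as 1 sample. No test of the difference between days was possible, and day, animal and plate cannot be told apart. Intervals cover counting error only, that of reads or, for shares of cells, that of cells. The latter take the cells of a group as independent, which cannot be checked here, and do not cover the spread between animals.

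Neutrophils are short-lived granulocytes that the bone marrow makes in large numbers. As they mature they load primary, then secondary, then gelatinase granules, stop dividing, gain the chemokine receptor CXCR2 and leave for the blood. Type I interferons act on them through transcription factors that bind interferon-stimulated response elements and switch on antiviral genes. Signals through Toll-like receptors and TNF act through NF-kB, which also turns on its own inhibitors. In tumour-bearing animals, neutrophils of an altered, T-cell-suppressing kind have been described.

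The labels call these cells metastatic tumour cells, and their RNA goes against that. Of 12 neutrophil markers all 12 were measured, and the limits used only S100a8, S100a9 and Cxcr2 of them. Ngp and Ltf had medians of 33703 and 14156 CPM at day 4 and of 22884 and 5170 CPM at day 16, and Ngp reached 20 CPM in every cell of both days. Ly6g, the surface marker of mouse neutrophils, had medians of 1631 and 1146 CPM. The other markers outside the limits were Camp, Csf3r, Itgb2l, Mmp8, Mmp9 and Retnlg. S100a8, with medians of 66866 and 85959 CPM, and Krt8, with 8.60 and 24.0 CPM, were set by the limits and say nothing on the label. mCherry RNA was nonetheless present, with medians of 1634 CPM at day 4 and 2672 CPM at day 16.

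Just inside the Cxcr2 limit the lowest cells held 109 CPM at day 4 and 128 CPM at day 16, and just outside it the nearest cells held 72.7 and 96.8 CPM. Only that limit kept out 29 and 9 cells. Median totals were 2934749 counts per cell at day 4 (lowest 435188) and 2271213 at day 16 (lowest 519294), with median gene numbers of 8413 and 8584. The summed groups held 237784162 and 90749900 counts. At the 20 CPM used below as the lowest level, the upper counting limit lay at most 2.88% above the value at day 4 and 4.71% above it at day 16. A single day 16 cell held 13183380 counts, 14.5% of its group's sum, of which 15.2% were mitochondrial. Markers of another cell class summed to 1000 CPM or more in 12 day 4 cells and 6 day 16 cells, and values without them are given where they differ.

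Genes with 20 CPM or more in the summed counts of either day numbered 5418. A gene was counted as higher or lower when its sums, with 5 CPM added, differed at least 2-fold, and the same held with every cell weighted equally. The higher day also had to show the gene in 30% of cells thinned to 500000 counts. By this rule 322 genes (5.94%) were higher at day 16 and 489 (9.03%) lower, with a median log2 ratio over all 5418 genes of −0.07. In the median cell the 2-fold difference also held for 67 of the higher genes (1.24% of all) and 83 of the lower ones (1.53%). Many of the higher genes rested on few cells: in 109 of the 322 a single day 16 cell held more than 50% of the sum, against 18 of the 489 lower genes with a single day 4 cell.

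**Figure D1:**
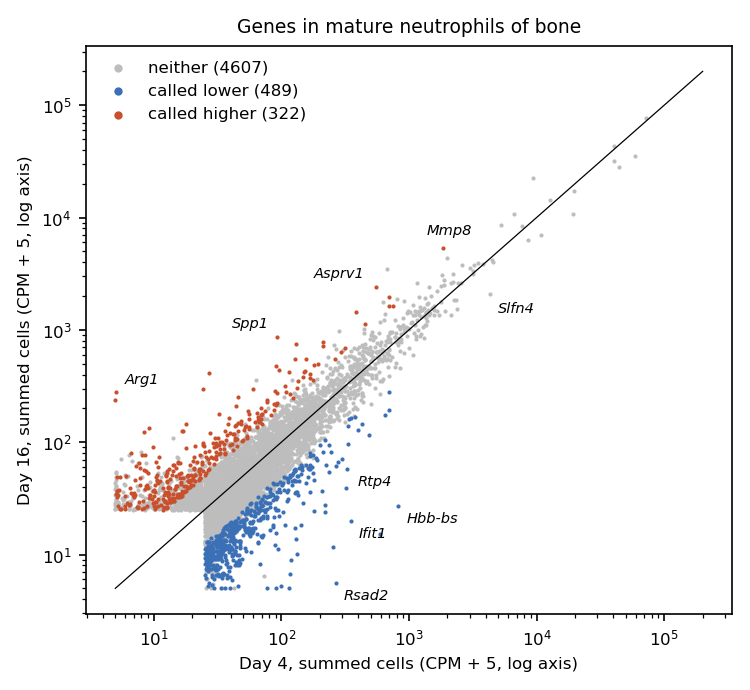
Summed level of each measured gene at day 4 (x axis) and day 16 (y axis), in CPM with 5 added, on log axes. Red points are the 322 genes higher at day 16 and blue points the 489 lower. Rsad2, Ifit1 and Rtp4 lie well below the diagonal and Mmp8 and Asprv1 above it.

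Interferon-stimulated genes were the group with the most lower members. Of 54 such genes 48 were measured, 37 were at least 2-fold lower at day 16, none was higher, and all 48 ratios were below 0 (median log2 −1.94, from −5.58 for Rsad2 to −0.12 for Slfn1). For 20 of them the median cell differed 2-fold too. The share of all measured genes that was lower was 9.03%. With each gene taken at its median cell, the list's median log2 ratio was −0.32. The genes cover several arms of the response. They include the RNA-binding IFIT family, the 2′-5′ oligoadenylate synthetases (Oas1a, Oas2, Oas3), the ubiquitin-like protein Isg15 and its protease Usp18, and the RNA sensors Ifih1 and Ddx58. The immunity-related GTPases Irgm1 and Irgm2 and the transcription factors Irf7 and Stat2 were lower as well. The list with the next lowest median, −1.13, was that of the cell cycle.

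Rsad2 encodes viperin, an antiviral enzyme (mm10 12:26442746-26456452, minus strand). Its RNA ran from 0 to 4341 CPM in day 4 cells with a median of 3.19 CPM, and from 0 to 1.72 CPM in day 16 cells. At 20 CPM or more it was found in 36 of 83 day 4 cells (43.4%, 32.5 to 54.7%) and 0 of 36 day 16 cells. With cells taken as independent, 0 of 36 allows a share of up to 8.33% by a limit of 3 cells, or 9.74% by the exact binomial limit. Day 4 cells were thus split between cells with the RNA and cells without it, and the day 16 cells all lay in the range of the latter. The sums were 260.6 CPM (258.5 to 262.7) and 0.551 CPM (0.409 to 0.726), a log2 ratio of −5.58.

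Rtp4, an interferon-induced chaperone of G-protein-coupled receptors (16:23520291-23614222, plus strand), was spread more evenly over the day 4 cells. It reached 20 CPM in 61 of 83 of them, with a median of 232 CPM and a highest value of 1800 CPM. At day 16 it did so in 9 of 36, with a median of 1.10 CPM and a highest value of 888 CPM. The ranges overlapped, but only 4 day 16 cells lay above the day 4 median, and the log2 ratio of the sums was −2.50.

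Oas3, which makes the 2′-5′ oligoadenylates that activate RNase L (5:120753098-120777661, minus strand), had a median of 265 CPM at day 4 and 3.94 CPM at day 16, with highest values of 3266 and 2044 CPM. It reached 20 CPM in 68 of 83 and 17 of 36 cells, and the log2 ratio was −1.57. Oas1a had medians of 202 and 4.23 CPM, with 71 and 15 cells at 20 CPM. Oas1a and Oas1g are near-identical copies, so reads may be split between them, and the same holds for Ifit3 and Ifit3b. In both Oas3 and Oas1a the day 16 cells spanned the whole range from 0 to above the day 4 median.

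The IFIT genes, whose proteins bind foreign RNA, were carried by fewer cells. Ifit1 (19:34640871-34650009, plus strand) reached 20 CPM in 27 day 4 cells and 2 day 16 cells, with highest values of 8722 and 305 CPM and sums of 345 and 14.9 CPM. Ifit2 reached it in 16 and 1 cells, and Ifit3 in 10 and 0. The median cell was near 0 on both days, so the difference lay in the few cells with high values.

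Slfn4, Irf7, Isg15 and Slfn1 were singled out after their values were seen. Slfn4, a Schlafen family gene of myeloid cells, was found in every cell of both days, from 119 to 15261 CPM with a median of 3986 CPM at day 4 and from 201 to 20143 CPM with a median of 1348 CPM at day 16. Only 4 day 16 cells lay above the day 4 median, yet a single one of them held 24.6% of the day 16 sum. The log2 ratio of the sums was −1.06, and with cells weighted equally it missed 2-fold, so it is not among the 37. Irf7, which amplifies the interferon response, had medians of 366 and 75.6 CPM and a log2 ratio of −1.88. Isg15 had medians of 43.6 and 0.69 CPM and a log2 ratio of −1.99. Slfn1, from the same family as Slfn4, had medians of 498 and 424 CPM and a log2 ratio of −0.12.

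**Figure D2:**
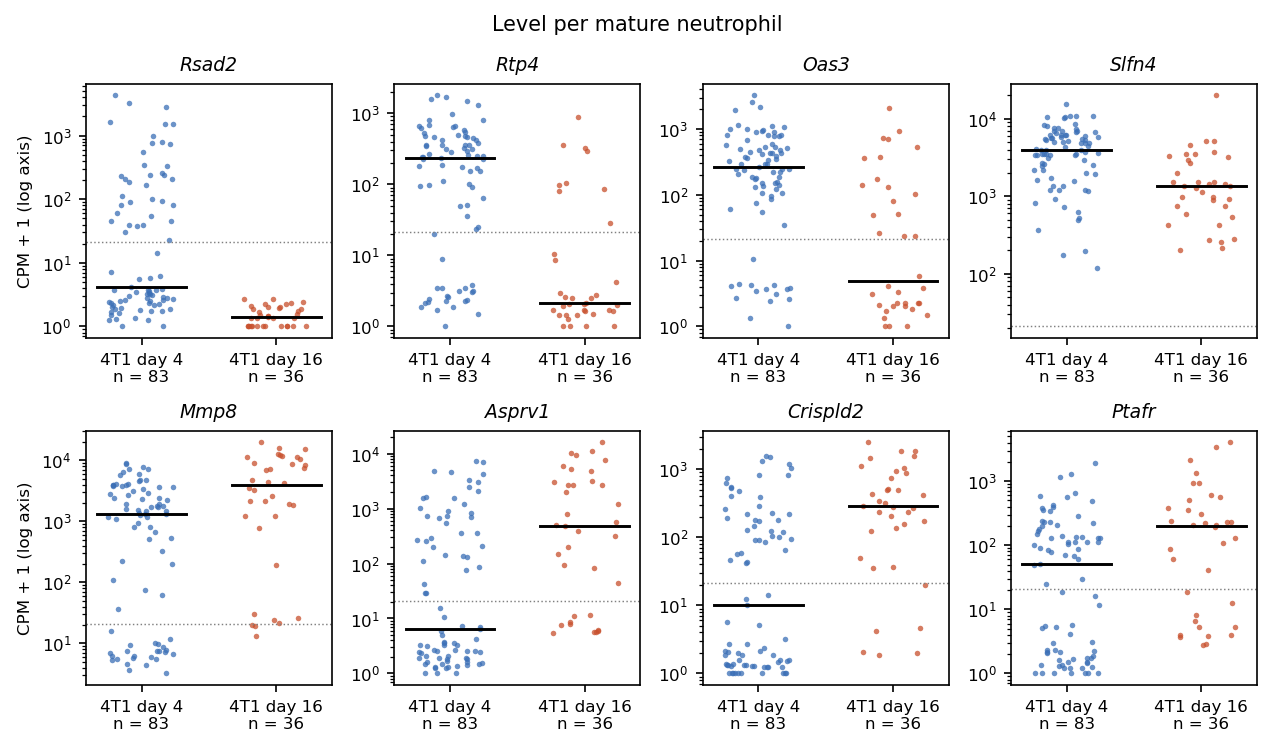
Level of 8 genes in each mature neutrophil at day 4 (83 cells, blue) and day 16 (36 cells, red), in CPM with 1 added on a log axis. Black bars are medians and the dotted line marks 20 CPM. Rsad2, Rtp4, Oas3 and Slfn4 (upper row) have lower medians at day 16, and Mmp8, Asprv1, Crispld2 and Ptafr (lower row) higher ones.

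The promoters of 4 of these genes are shown because the letters of the interferon-stimulated response element can be read in them. Each sequence is the 250 bases before the RefSeq start on build GRCm38.p6, written 5′ to 3′ on the gene's strand. Capitals mark the motif GAAA, any 2 bases, GAAA on either strand, so that on the other strand it reads TTTC, any 2 bases, TTTC. They lie at chr19:34640639-34640888 (plus strand) for Ifit1, chr4:156200819-156201068 (minus) for Isg15, chr5:120777660-120777909 (minus) for Oas3 and chr12:26456453-26456702 (minus) for Rsad2.
Ifit1: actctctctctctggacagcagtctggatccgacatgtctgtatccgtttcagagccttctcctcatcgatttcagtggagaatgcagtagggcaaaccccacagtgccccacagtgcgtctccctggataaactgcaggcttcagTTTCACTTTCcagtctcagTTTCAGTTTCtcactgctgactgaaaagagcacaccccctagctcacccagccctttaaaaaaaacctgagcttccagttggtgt
Isg15: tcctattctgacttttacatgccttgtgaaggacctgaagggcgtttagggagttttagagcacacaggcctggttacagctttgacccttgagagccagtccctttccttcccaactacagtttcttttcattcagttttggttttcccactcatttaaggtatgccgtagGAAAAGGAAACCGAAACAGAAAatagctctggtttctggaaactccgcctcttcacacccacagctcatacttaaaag
Oas3: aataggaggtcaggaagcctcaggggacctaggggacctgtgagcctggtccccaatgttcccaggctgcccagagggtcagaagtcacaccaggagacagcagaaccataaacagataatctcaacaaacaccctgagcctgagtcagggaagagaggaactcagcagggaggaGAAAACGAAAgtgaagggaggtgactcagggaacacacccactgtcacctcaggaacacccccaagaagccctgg
Rsad2: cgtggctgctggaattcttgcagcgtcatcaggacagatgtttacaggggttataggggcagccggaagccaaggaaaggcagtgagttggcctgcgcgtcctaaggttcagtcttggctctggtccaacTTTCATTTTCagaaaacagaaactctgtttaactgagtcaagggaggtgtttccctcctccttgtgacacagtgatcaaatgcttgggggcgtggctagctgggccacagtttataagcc

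In these sequences Ifit1 held matches that end 94 and 75 bases before the start, Isg15 3 overlapping matches that end 68, 62 and 56 bases before it, Oas3 a match at 65 bases and Rsad2 a match at 110 bases. The motif was present in 2.98% of all 32851 RefSeq promoters of this length. Among 4320 measured genes found in that table it was in 4.14%. It was in 19 of the 38 interferon-list genes found there (50%), in 16 of the 29 that were lower at day 16 (55.2%) and in 20 of 366 lower genes outside the list (5.46%). Among 248 genes that were higher at day 16 it was in 6 (2.42%). Slfn4, Irf7, Slfn1 and Ifit2 held no match in this window. An NF-kB motif, GGGA, any base, TTTCC on either strand, was in 0.356% of all promoters, in 2 of 20 NF-kB targets, in 0 of the 8 such targets that were higher at day 16 and in 2 of all 248 higher genes.

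Summed over the list, interferon-stimulated RNA ranged in day 4 cells from 1417 to 64894 CPM with a median of 9354 CPM, and in day 16 cells from 827 to 23226 CPM with a median of 3605 CPM. The ranges overlapped, and 3 of 36 day 16 cells lay above the day 4 median. Without Slfn4, the most abundant member, the medians were 4572 and 1931 CPM. The number of list genes at 20 CPM or more in a cell ran from 6 to 51 with a median of 20 at day 4, and from 4 to 21 with a median of 8.5 at day 16. Day 4 cells therefore included cells with nearly the whole list and no day 16 cell did.

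The difference was seen in neutrophils of both kinds of granule content. RNA of the secondary granule proteins Ngp, Camp and Ltf falls late in maturation, and 10 of 83 day 4 cells and 9 of 36 day 16 cells held under 5000 CPM of the 3 together. In these cells the median interferon sum was 13907 CPM at day 4 and 3599 CPM at day 16. In the cells with more granule RNA it was 8301 CPM (73 cells) and 4271 CPM (27 cells). The list's median log2 ratio was −2.79 in the former and −2.14 in the latter. Within day 4, cells with more granule RNA had less interferon-stimulated RNA (Spearman's rho −0.41 over 83 cells). Within day 16 rho was 0.01 over 36 cells. Both measures are shares of the same cell's total, and cells of a day may share an animal.

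**Figure D3:**
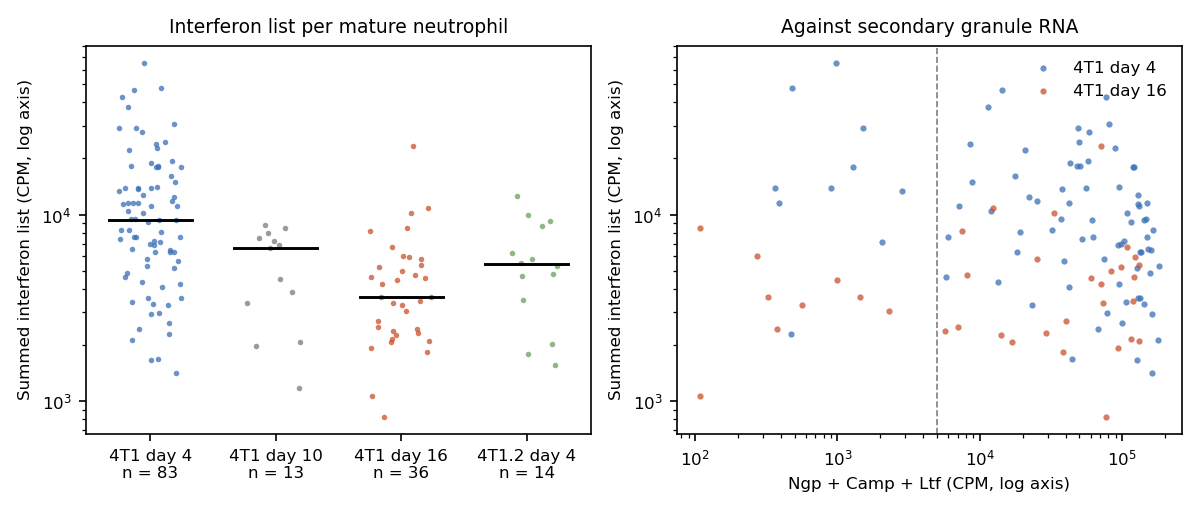
Left, summed CPM of the interferon list in each mature neutrophil of 4 groups, on a log axis with medians as bars. Right, the same values against the summed CPM of Ngp, Camp and Ltf for 4T1 day 4 (blue) and day 16 (red), both axes log, with 5000 CPM as a dashed line. The day 16 median of 3605 CPM lies below the 4T1 day 4 median of 9354 CPM on the left, and below that of 4T1.2 at 5411 CPM.

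The result depended on which day 4 group was used. In 14 mature neutrophils of 4T1.2 at day 4 the median interferon sum was 5411 CPM, with 12 list genes at 20 CPM in the median cell. Against that group only 7 list genes were at least 2-fold lower at day 16 and 6 were higher (17.3% and 11.6% of all genes there), with a median log2 ratio of −0.17. Rsad2, Ifit1 and Rtp4 remained lower, at −2.19, −1.92 and −1.94, while Irf7 and Oas1a were at −0.21 and −0.16 and Isg15 at 0.21. In 13 mature neutrophils of 4T1 at day 10 the median sum was 6626 CPM, and 36 list genes were lower and 0 higher than at day 4 (15.1% and 8.96% of all genes there), with a median of −1.89. The day 10 and day 16 comparisons share the day 4 cells, and the 2 comparisons with day 16 share the day 16 cells.

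Other cells of the same days were compared by the same rule. In cells with the neutrophil limits but under 100 CPM of Cxcr2 (29 at day 4, 9 at day 16), 26 of 40 measured list genes were lower at day 16, against 8.86% of all genes, with a median of −2.05. The summed list in the median cell of that gate was closer between the days, 2360 CPM at day 4 and 1776 CPM at day 16 (log2 −0.41). In cells taken by C1qa as macrophages (7 and 55), 38 of 54 were lower, against 13.6% of all genes, with a median of −1.66 and sums in the median cell of 9891 and 2581 CPM (log2 −1.94). In cells taken by Krt8 and Krt18 as tumour cells (131 and 65), 11 of 43 were lower, against 8.87%, and 0 were higher, against 8.18%, with a median of −0.17. The summed list in the median tumour cell was 971 CPM at day 4 and 2401 CPM at day 16. Rsad2 was lower in all 3 of these gates, whereas Rtp4 was lower in the first 2 and had a log2 ratio of 0.11 in the tumour gate. Differences between gates were not tested.

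Genes of MHC class I presentation, several of which interferons induce, had 4 of 17 lower and 0 higher (median −0.55), where 9.03% of all genes were lower and 5.94% higher. The lower ones were the immunoproteasome subunits Psmb9 and Psmb10 (log2 −1.37 and −1.31), the proteasome activator Psme2 (−1.19) and the non-classical H2-T22 (−1.26), whose reads may be shared with other H2-T genes. H2-D1 and H2-K1, the classical class I chains, had ratios of 0.02 and 0.04. Psmb9 is also in the interferon list.

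Against 4T1.2 at day 4 the class I median was 0.32 and H2-T22 was higher at 1.42. The suppressor of cytokine signalling Socs1 was lower too, at 0 of 36 and 18 of 83 cells with 20 CPM or more (log2 −2.66). Its sums were 1.33 and 34.9 CPM.

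Granule genes differed unevenly. Mmp8, the neutrophil collagenase stored in secondary granules (9:7558456-7568485, plus strand), ran from 2.22 to 9047 CPM with a median of 1331 CPM at day 4, and from 12.3 to 19850 CPM with a median of 3924 CPM at day 16. The ranges overlapped, with 25 of 36 day 16 cells above the day 4 median, and the log2 ratio was 1.54. Of 15 secondary granule genes it was the only one counted as higher or lower, and the list's median was −0.29, with 5.94% of all genes higher. Mmp8 was higher in cells with little granule RNA (medians 4295 and 1200 CPM at day 16 and day 4) and in cells with more (3552 and 1331 CPM). Against 4T1.2 its ratio was 0.25.

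Of the 15 secondary granule ratios 10 were below 0 and 5 above. None but Mmp8 was counted as higher or lower. Ltf, the iron-binding lactoferrin, had medians of 14156 CPM at day 4 and 5170 CPM at day 16 (log2 of sums −0.83). Camp, the cathelicidin precursor, had medians of 8226 and 2892 CPM (−0.65), and Ngp, a cystatin-like granule protein, of 33703 and 22884 CPM (−0.63). Of 8 primary granule genes only Ctsg, the protease cathepsin G, was higher (log2 1.07), beside 5.94% over all genes. A single cell held 68.4% of the day 16 sum and another 72.4% of the day 4 sum. Among 16 gelatinase granule and secretory vesicle genes, Fcnb (ficolin B) and Hpse (heparanase) were lower, at −2.07 and −1.91, beside 9.03% lower over all genes, and Mmp9 had a ratio of 0.52.

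Genes of late maturation were mostly on the higher side, with 22 of 26 ratios above 0, 6 at least 2-fold higher and 1 lower (median 0.55). Over all genes 5.94% were higher and 9.03% lower. The list's median was 0.25 in cells with under 5000 CPM of Ngp, Camp and Ltf, 0.20 in cells with more, and 0.13 against 4T1.2. The lower one was Rsad2, which is also an interferon gene. Csf3r, the receptor of G-CSF, the main growth factor of neutrophils, ran from 1.27 to 3644 CPM with a median of 490 CPM at day 4, and from 72.2 to 10477 CPM with a median of 694 CPM at day 16. The log2 ratio of the sums was 1.12, but 22 of 36 day 16 cells lay above the day 4 median and 1 cell held 31.3% of the day 16 sum. Ifitm1, Ccl6 and Dusp1 had ratios of 1.92, 2.13 and 1.89. Stfa2l1 and Gm5483, 2 stefin-type protease inhibitors with near-identical copies, had ratios of 1.15 and 1.09.

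Asprv1, an aspartic protease related to retroviral proteases, separated the days in the typical cell. It ran from 0 to 7424 CPM at day 4 with a median of 5.41 CPM, and from 4.50 to 16203 CPM at day 16 with a median of 487 CPM. It reached 20 CPM in 37 of 83 and 26 of 36 cells, and the log2 ratio was 2.12. Crispld2, a secreted glycoprotein, had medians of 9.16 and 284 CPM, with 39 and 30 cells at 20 CPM and a ratio of 1.43. Il6ra, the IL-6 receptor chain, had medians of 0.61 and 38.3 CPM and a ratio of 1.92. The ranges of all 3 genes overlapped between the days, with highest day 4 values of 7424, 1571 and 1030 CPM in the same order, above the day 16 medians. Against 4T1.2 their ratios were 0.81, −0.53 and 0.61.

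The next 3 lists, of NF-kB targets, immediate early genes and cytokines, had higher members and no lower ones. Of 24 NF-kB targets 9 were higher and 0 lower (median 0.93), among them the feedback inhibitor Tnfaip3 (1.80), the adhesion molecule Icam1 (1.88), the stress gene Gadd45b (2.46) and Bcl2a1d (1.92), a survival gene with near-identical copies. Of 24 immediate early genes 6 were higher and 0 lower (median 0.78), among them Dusp1, Nr4a2, Myc and Gadd45b. Of 18 cytokine genes 5 were higher and 0 lower (median 0.63), among them Tnf, Csf1, Ccl6 and Il1a. The background was 5.94% of all genes.

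The median cell showed much less of this than the sums. Over all cells the summed NF-kB list had medians of 2087 CPM at day 4 and 2150 CPM at day 16. In cells with under 5000 CPM of Ngp, Camp and Ltf the medians were 3718 and 13504 CPM, and in cells with more they were 1898 and 1671 CPM. The median log2 ratio of the NF-kB genes was 1.97 among the former cells and −0.45 among the latter. For cytokines and immediate early genes it was −0.19 and −0.0069 among the latter. Cells with little granule RNA were 9 of 36 at day 16 and 10 of 83 at day 4.

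Dusp1, a phosphatase that switches off MAP kinases, had a higher median at day 16 in both kinds of cell. In cells with little granule RNA its medians were 330 CPM at day 4 and 2121 CPM at day 16, and in cells with more they were 10.8 and 38.8 CPM. For Csf3r the same medians were 994 and 3488 CPM, and 454 and 476 CPM. For Ptafr, the receptor of the lipid attractant PAF, they were 68.1 and 939 CPM, and 50.9 and 59.8 CPM. In all 3 genes the medians were further apart among the 10 and 9 cells with little granule RNA, a difference that was not tested. Against 4T1.2, Dusp1 was lower at day 16 (−1.39), as was the immediate early list's median (−0.46). Immediate early genes are also known to respond to tissue dissociation, whose part was not tested.

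**Figure D4:**
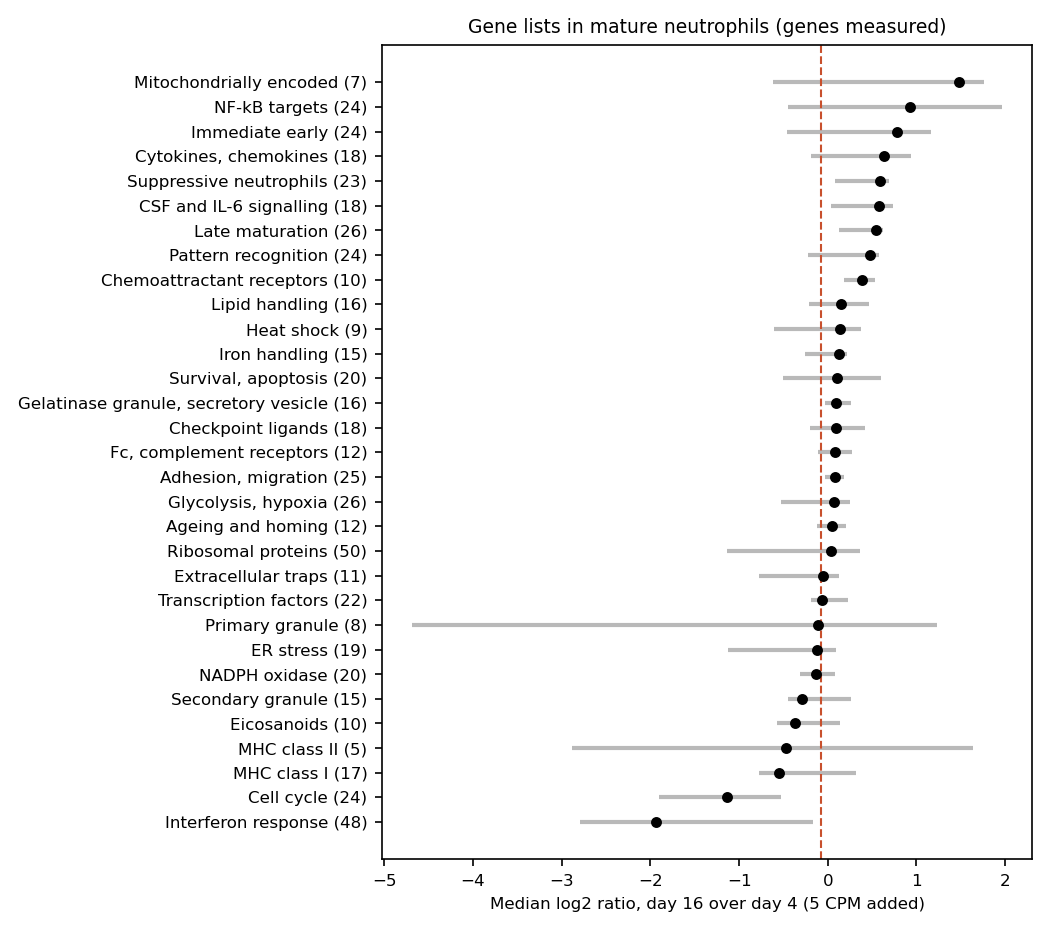
Median log2 ratio of day 16 over day 4 for each of 31 gene lists (points), with the number of measured genes in brackets. Grey bars span the medians over 23 other ways of processing or choosing cells, and the dashed line is the median of all genes at −0.07. The interferon list lies lowest at −1.94, with a bar from −2.79 to −0.17.

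Tnf, the cytokine that activates NF-kB, ran from 0 to 676 CPM at day 4 and from 0.34 to 8688 CPM at day 16. It reached 20 CPM in 34 of 83 and 15 of 36 cells, similar shares (41.0% and 41.7%), and 1 day 16 cell held 59.8% of the sum. Il1a was held to 98.3% by 1 cell. Acod1, which makes itaconate, had medians of 6.78 and 11.9 CPM and a log2 ratio of 1.49. In cells with more granule RNA the ratio was −1.86. The Acod1 difference therefore turned direction with the cells taken.

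Among chemoattractant receptors 2 of 10 were higher, Ptafr (1.84) and the nucleotide receptor P2ry2 (2.27), and Fpr1, the formyl peptide receptor, had a ratio of 1.13 without passing the rule. The list's median was 0.38, and 5.94% of all genes were higher. Of 24 pattern recognition genes Tlr13 and Irak2 were higher (1.57 and 1.39) and Tlr4 and Nod1 lower (−1.33 and −1.21), 2 of 24 each way where the shares over all genes were 5.94% higher and 9.03% lower. Tlr4, the endotoxin receptor, was found at 20 CPM in 26 of 83 and 8 of 36 cells. Of 18 genes of CSF and IL-6 signalling 3 were higher and 1 lower (median 0.58), beside 5.94% and 9.03% of all genes. The higher ones were Csf3r, Il6ra and the transcription factor Cebpb, and the lower one was Socs1. The list's median was 0.04 in cells with 5000 CPM or more of Ngp, Camp and Ltf. Against 4T1.2 it was 0.09, with 0 higher and 1 lower, beside 11.6% and 17.3% of all genes there. In the tumour gate 8 of 17 were higher (median 0.84), against 8.18% of all genes. Of 23 genes described in suppressive neutrophils 6 were higher and 0 lower (median 0.59, and 0.08 in cells with 5000 CPM or more of Ngp, Camp and Ltf), beside 5.94% and 9.03% of all genes. These were Arg1, Asprv1, Ifitm1, Acod1, Wfdc17 and Stfa2l1, and the list overlaps the maturation list. The Arg1 sum rested mostly on 1 cell, described below.

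Cell cycle genes were lower in number and not in every cell. All 24 were measured, 11 were at least 2-fold lower, none was higher and all 24 ratios were below 0 (median −1.13), where 9.03% of all genes were lower. Ccna2, the S and G2 phase cyclin A2, reached 20 CPM in 19 of 83 day 4 cells and 2 of 36 day 16 cells, with a log2 ratio of −3.07. Top2a, the topoisomerase of dividing cells, did so in 23 and 4 cells (−1.72). Mki67, the usual marker of cycling cells, had a ratio of −0.06. The list summed to 5000 CPM or more in 20 of 83 day 4 cells (24.1%) and 3 of 36 day 16 cells (8.33%), so most cells of both days were below this level. In 4T1.2 at day 4 it did so in 1 of 14 cells (7.14%), near the day 16 share, and in 4T1 at day 10 in 4 of 13 (30.8%). Against 4T1.2 the list's median was −0.53, with 5 of 24 lower and 2 higher, beside 17.3% and 11.6% of all genes there. At day 10 the median was 0.14 relative to day 4. Ccna2 was also lower in the tumour gate (−3.47), as were all 24 list genes there (median −2.74, against 8.87% of all genes). Other gates did not share this. In cells with the neutrophil limits but under 100 CPM of Cxcr2, 0 of 24 were lower and 2 higher (median 0.07, against 8.86% and 15.5%). In the macrophage gate 2 of 23 were lower and 11 higher (median 0.92, against 13.6% and 21.2%).

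Among the lower genes were also 4 named by their median cell, a rule added after values were seen. Parvg, a parvin of leukocyte adhesions, had medians of 139 CPM at day 4 and 2.63 CPM at day 16 (log2 of sums −2.12). Palm, a membrane-anchored paralemmin, had medians of 109 and 1.17 CPM (−1.95). Sash3 and Zmpste24 had ratios of −1.45 and −1.81. Hk3, the hexokinase of myeloid cells, had medians of 576 and 217 CPM with 4 of 36 day 16 cells above the day 4 median (−1.32). Parvg and Palm were lower against 4T1.2 too, at −2.18 and −1.40, while Hk3 was at −0.63.

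Several groups differed little. None of 20 genes of the NADPH oxidase and none of 12 Fc and complement receptors was 2-fold apart, with medians of −0.13 and 0.08. Cybb, the catalytic chain of the oxidase, had medians of 2042 and 894 CPM (−0.65), and Rac2 of 3104 and 2941 CPM (−0.01). None of 50 ribosomal protein genes was 2-fold apart (median 0.04). Of 25 adhesion and motility genes 3 were higher, Icam1, S100a10 and Itgb1, and 0 lower. Over all genes 5.94% were higher and 9.03% lower. In cells with 5000 CPM or more of Ngp, Camp and Ltf the ratios of Icam1 and Itgb1 were −0.17 and −0.49. Against 4T1.2 that of S100a10 was −1.09. The 7 mitochondrially encoded genes measured had a median of 1.48, and −0.55 without the day 16 cell with the most counts, and none passed the rule.

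Some of the furthest genes sat at a level that other cells of the same day shared. This common level was taken as the lowest of the medians in the tumour, macrophage and B-cell gates. Spp1 (osteopontin) had medians of 17.2 CPM at day 4 and 186 CPM at day 16, beside common levels of 12.4 and 149 CPM. Apoe had 5.43 and 148 CPM beside 5.03 and 126 CPM, and C1qb 0.54 and 19.3 CPM beside 0.41 and 16.2 CPM. The B-cell gene Ighm had 14.9 and 3.15 CPM beside 13.5 and 2.50 CPM. Krt18 had 5.78 and 19.3 CPM beside 4.76 and 17.5 CPM. For these genes the median neutrophil lay close to the common level of its day, so the difference between days is not read as one of neutrophils.

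Arg1, the arginase linked to suppressive myeloid cells, was at 0 in the median day 4 cell and at most 3.08 CPM there. At day 16 it ran from 7.17 to 8081 CPM with a median of 31.5 CPM beside a common level of 8.70 CPM, and 1 cell held 89.0% of the sum. Its log2 ratio of 5.77 was the furthest of all higher genes. The cell with 8081 CPM of Arg1 also held 16431 CPM of Spp1 and 16159 CPM of Apoe. Arg1 stepped with cell number as well. Day 16 cells numbered up to 94 held 7.17 to 20.7 CPM, and those numbered from 100 on held 27.2 CPM or more. A single common level for the day does not cover such a step, so the Arg1 difference is not read as one of neutrophils either. The step was not one of Arg1 alone. Hbb-bs was at 0 in every day 16 cell numbered up to 94 and reached 245 CPM in those from 100 on. Spp1 was at 189 CPM or more in the cells numbered up to 94 and as low as 103 CPM in the others. A single common level is therefore a rough guide for Hbb-bs and Spp1 too. Mmp12, a macrophage elastase, had no count at day 4 and 231 CPM in the day 16 sum, of which 1 cell held 97.5%.

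Marker lists of other cells were followed as a whole. Over all genes 5.94% were higher at day 16 and 9.03% lower. The 8 macrophage markers summed to 2.08 to 7301 CPM in day 4 cells (median 11.2) and to 162 to 17368 CPM in day 16 cells (median 236), and 3 of 3 measured were higher. The 9 erythroid markers summed to medians of 46.7 and 3.62 CPM, and 7 of 8 measured were lower. A single day 4 cell held 96.7% of the Hbb-bs sum, and without cells rich in another class the Hbb-bs ratio was 0.15 in place of −4.94. The 9 B-cell markers had medians of 40.8 and 6.63 CPM and the 10 epithelial markers of 17.9 and 44.4 CPM. Monocyte markers had medians of 446 and 641 CPM, with 1 of 6 measured higher (Csf1r, 2.27) and 1 lower (Ms4a6c, −2.07). The interferon list's median log2 ratio lay between −2.79 and −0.17 over all 23 other settings, those without these cells included. The part of these RNAs in the results on single genes was not tested beyond the values given.

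**Figure D5:**
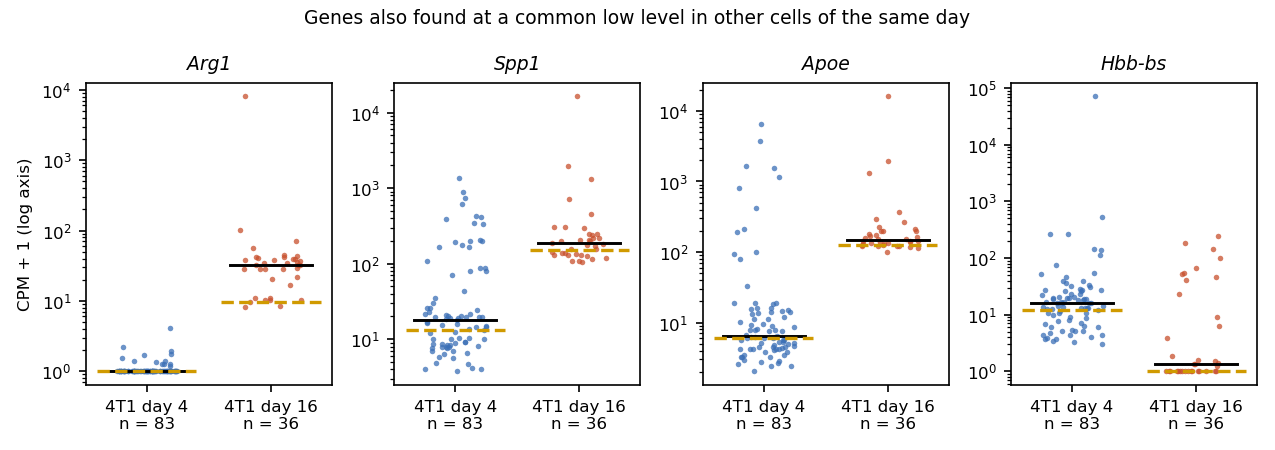
Level of Arg1, Spp1, Apoe and Hbb-bs in each mature neutrophil at day 4 (blue) and day 16 (red), in CPM with 1 added on a log axis. Black bars are medians and dashed orange lines the level common to other cells of the day. For Spp1 at day 16 the median of 186 CPM lies near the common 149 CPM.

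Other genes at the far end of the higher side also rested on single cells. The day 16 cell with 13183380 counts held 95.0% of the sum of Id3, an inhibitor of basic helix-loop-helix factors, 97.8% of Tslp, 96.4% of Lhfp, 94.7% of Snhg8 and 92.4% of Nupr1. Without it the Id3 ratio was −0.13 in place of 3.63. Akr1b3, an aldose reductase, was higher (3.93) with 31.6% in its top cell and reached 20 CPM in 11 of 36 and 14 of 83 cells. Rgs1, a brake on G-protein signalling, was higher (3.87) with 6 of 36 and 4 of 83 cells at 20 CPM.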

How the data were processed

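Single cells were processed with a modified Smart-seq2 protocol (full-length cDNA, oligo-dT priming, paired 150-base reads), per the labels' protocols. The authors deposited 1 table of raw read counts with a column per cell, which holds reads and not molecules. The submitters' processing notes list STAR 2.6.0c and featureCounts 1.6.2 with build mm10, and also Seurat 3.1.2, R 3.6.2, SAMtools 1.7, Trim Galore 0.6.6 and FastQC 0.11.7, without roles. The gene models counted were not given in the sources used here. Of 40840 entries, 78 ERCC spike-ins, the reporters and 4 repeated symbols (0.0149% of counts) stayed out of the totals. No member columns were identical. Doublets were treated by the limits on other classes' genes alone, with no caller.

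Each cell's group came from its own label. Counts were summed per group, scaled to CPM and compared as log2 of CPM plus 5, with exact Poisson intervals at 95%. Thinning to 500000 counts left out 1 day 4 cell. The members, the 31 gene lists, the 13 marker classes and the settings were chosen with earlier results of these data known. Named genes were the 12 furthest each way, up to 4 per list each way (or the 2 most abundant), the markers and, added after values were seen, the 12 furthest by median cell and 4 single genes. Other genes of a fixed list are named as examples, and gene models without a conventional symbol were left out. Some genes that these rules pick are not described. edgeR 4.0.16 and DESeq2 1.42.0 in R 4.3.3 gave alternative scaling factors only. Python 3.11.15, numpy 2.4.6, pandas 2.3.3 and scipy 1.17.1 did the rest, with matplotlib 3.10.9 for figures. The ratio and the rule for counting genes were tried on simulated data, with cells thinned to fewer counts than here and noise independent between genes. That trial does not show how the rule does on genes that move together or rest on single cells. Positions are from GENCODE M21 and promoters from RefSeq GRCm38.p6.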

Additional observations from a re-analysis of the deposited data

Results flagged for a closer look

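The summed interferon list in the median cell moved in opposite directions in neutrophils and in tumour cells of the same days. In mature neutrophils the log2 of day 16 over day 4 was −1.38 (3605 against 9354 CPM), and in cells taken by Krt8 and Krt18 as tumour cells it was 1.31 (2401 against 971 CPM). The difference between the 2 was not tested. The median over the tumour gate's list genes was −0.17 in the sums, so the sign there differs between the summed level and the single genes.

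RNA of the tumour cells' reporter mCherry, which no comparison of the report uses, was present in cells with the RNA of neutrophils. Its median was 2672 CPM at day 16 and 1634 CPM at day 4, against 26.6 CPM in mature neutrophils of 4T1.2 at day 4. Median luciferase reporter RNA was 2.24 and 0.95 CPM in the first 2 of these groups.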

How the results depend on the processing

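Day 16 was compared with day 4 under 23 other settings, 5 of them chosen after seeing the data. No paired analysis was possible because cell numbers only name cells and each group is 1 sample. The 322 higher and 489 lower genes became 61 and 69 by the median of cells, 149 and 174 with a pseudocount of 20 CPM, 661 and 959 without a filter, 171 and 199 with a filter of 50 CPM, 1038 and 1474 in cells with under 5000 CPM of Ngp, Camp and Ltf, 666 and 990 against 4T1.2 at day 4, and 114 and 186 where 30% of cells had to reach 20 CPM. Without each gene's highest cell 162 were higher, and with the common level of the day subtracted 937 were lower. The other counts lay within 1.5 times. TMM scaling gave 350 and 445, and leaving out the deepest day 16 cell 350 and 486. The interferon and cell cycle medians were below 0 in all 23 settings, and at or below −1 in 21 and 16 of them. By the median of cells the interferon median was −0.32. Not every setting could move these medians. A limit of 25% mitochondrial counts removed no cell, as the highest share was 15.2%. Leaving out the filter, the filter of 50 CPM and the 30% rule change which genes are counted and not the ratios. Of the 21 lists whose median lay under 0.5 from 0, 20 had the other sign in at least 1 setting, among them pattern recognition (0.48, down to −0.22), survival and apoptosis (0.10, down to −0.51) and MHC class II (−0.47, up to 1.64). Changes of sign follow for lists with a median at least 0.5 from 0 and for named genes counted as higher or lower, and the cause was not tested. Against 4T1.2: the immediate early list −0.46, MHC class I 0.32, Ccl6 −0.37, Crispld2 −0.53, Csf1r −0.13, Dusp1 −1.39, H2-T22 1.42, Ifit2 0.25, Isg15 0.21, Oas1g 0.10, P2ry2 −0.16, Rara −0.46 and S100a10 −1.09. With 5000 CPM or more of Ngp, Camp and Ltf: cytokines −0.19, NF-kB −0.45, immediate early genes −0.0069, mitochondrial genes −0.46, Acod1 −1.86, Apoe −0.086, Bcl2l11 −0.40, Entpd1 −0.89, Icam1 −0.17, Id3 −0.060, Il1a −0.48, Itgb1 −0.49, Ptafr −0.015, Snhg8 −0.023, Tlr13 −0.13, Tnf −0.092 and Tnfaip3 −1.37. With under 5000 CPM of them: Akr1b3 −0.95, Ctsg −5.53, Fas −0.071, Gm5483 −0.92 and Rara −0.27. By the median of cells: mitochondrial genes −0.62, Hpse 0.023, Irf8 0.19, Ms4a6c 0.15, Pla2g4a 0.024, Psmb10 0.22, Tlr13 −0.36 and Tlr4 0.079. Without the highest cell: mitochondrial genes −0.40 and Id3 −0.016. With the stricter limits on other cells: mitochondrial genes −0.39, Entpd1 −0.53, Id3 −0.46, Snhg8 −0.17 and Tslp −0.15. Without cells rich in another class: Bhlhe40 −0.14, Car2 0.65, Hbb-bs 0.15, Itgb1 −0.53, Nr4a2 −0.24 and Pfkfb3 −0.079. Without the deepest cell: mitochondrial genes −0.55 and Id3 −0.13. With the common level subtracted P4ha1 was −0.87, and with Cxcr2 at 200 CPM or more Ctsg was −0.34. Totals per cell limit levels near 1 CPM to a few reads.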
